A study of Mus musculus domesticus with 6 samples.

Results

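Replication-dependent histone genes encode the bulk histones, H1, H2A, H2B, H3 and H4, that package new DNA. They were taken as all genes whose symbol starts with Hist1h, Hist2h, Hist3h or Hist4h, and 70 of the 55359 genes in the deposited tables met that rule. They comprised 6 H1, 20 H2A, 19 H2B, 12 H3 and 13 H4 genes. By RefSeq's annotation the 56 Hist1 genes lie on chromosome 13, the 10 Hist2 genes on chromosome 3, the 3 Hist3 genes on chromosome 11 and the single Hist4 gene on chromosome 6. RefSeq lists 3 of the 70, Hist1h2aj, Hist1h2al and Hist3h2bb-ps, as pseudogenes. RNA was sequenced from BFU-E, the earliest committed red cell progenitors, sorted from fetal livers of E14.5 mouse embryos. All embryos were Exosc3 fl/fl, and 3 were Cre+ and 3 Cre- for Vav1-Cre, a transgene whose promoter is active in blood cells, so that Cre+ blood cells can lose Exosc3, a subunit of the RNA exosome. The samples came from 3 litters, 2 from each, and the labels do not say which sample came from which litter. The stated sort was for GFP+ Lin- Kit+ cells with low CD24 and CD71 staining.

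These genes are transcribed mainly in S phase, when DNA is copied. Their mRNAs lack introns and, unlike other mRNAs, usually end in a stem-loop in place of a poly(A) tail. The stem-loop binding protein SLBP holds that end through processing, export and translation, and the exonuclease ERI1 trims it when the mRNA decays. The RNA exosome degrades RNA from its 3' end, and its part in histone mRNA decay has been studied in human cells. The kit used here copies total RNA, so histone mRNA without a tail could be captured.

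The stem-loop is shown first because it is the shared feature that the choice by symbol did not use. A 16-base pattern, the 6-base arms GGNNCT and AGNNCC around the 4-base loop TNTN with the arms required to pair, was searched on the sense strand of each gene's transcripts in GENCODE M21. It was found in 46 of the 70 histone genes (65.7%) and in 15 of 55380 other genes (0.0271%), H2afx among them. The sites below, from the genes with high levels or low p-values and from each sequence variant, are given 5' to 3' as DNA, with the stem-loop in capitals and up to 5 bases on each side.
Hist1h1c: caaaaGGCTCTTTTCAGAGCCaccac
Hist1h2ap: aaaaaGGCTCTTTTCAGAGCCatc
Hist2h2aa1: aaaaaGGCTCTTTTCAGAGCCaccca
Hist2h2ac: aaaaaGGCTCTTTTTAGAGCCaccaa
Hist1h2bm: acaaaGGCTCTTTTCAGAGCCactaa
Hist1h2bk: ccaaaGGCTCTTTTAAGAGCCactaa
Hist1h3b: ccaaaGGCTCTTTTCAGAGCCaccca
Hist1h3g: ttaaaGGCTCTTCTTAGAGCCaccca
Hist1h4h: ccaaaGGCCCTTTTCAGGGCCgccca
Hist1h4d: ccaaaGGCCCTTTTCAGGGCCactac
Hist1h4i: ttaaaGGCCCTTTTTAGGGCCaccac
Hist1h4b: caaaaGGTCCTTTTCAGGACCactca
Hist1h4a: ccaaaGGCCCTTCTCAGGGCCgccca

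The arms separated H4 from the other types. All 34 sites of H1, H2A, H2B and H3 genes began with GGCTC, whereas of the 12 H4 sites 10 began with GGCCC and 2, in Hist1h4b and Hist1h4j, with GGTCC. Both arms change together, since pairing was required. A gene model without a match, as in 24 of the 70, may end before the site, so no match says only that these letters are not in the model.

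The genes are copies of each other, which limits how reads can be divided among them. H4 is shown as an example. The first 60 coding bases are given for the H4 genes with the highest level per length. Those of Hist1h4d, the H4 gene with the smallest p, follow, with bases that differ from Hist1h4h in capitals throughout.
Hist1h4h: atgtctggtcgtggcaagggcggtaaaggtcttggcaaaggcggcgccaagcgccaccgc
Hist1h4k: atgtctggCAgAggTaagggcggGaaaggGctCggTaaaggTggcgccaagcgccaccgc
Hist1h4b: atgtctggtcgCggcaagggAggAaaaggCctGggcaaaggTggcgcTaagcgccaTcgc
Hist1h4d: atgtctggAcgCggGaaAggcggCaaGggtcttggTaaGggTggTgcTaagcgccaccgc

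Over their 312 coding bases, Hist1h4k differed from Hist1h4h at 14 positions, Hist1h4b at 11 and Hist1h4d at 19. The 78 pairs of H4 genes were 85.3% to 100% identical, with a median of 93.9%, and Hist1h4m and Hist1h4n were identical. The share of 50-base windows of a transcript that occur in no other gene had a median of 98.9% for H1, 60.5% for H4, 54.7% for H2B, 38.0% for H3 and 26.8% for H2A. Expected counts split shared reads by a model, and of the values above 0, 79.9% of those of histone genes and 10.9% of those of all genes differed from a whole number by more than 1e-06. Values of single H2A, H2B, H3 and H4 genes are therefore uncertain, and totals by type are less exposed to the split.

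The libraries held 89629949 to 124931215 expected counts, and histone genes took 1.17% to 1.55% of them in Cre+ libraries and 1.45% to 1.67% in Cre- libraries. Exosc3, the floxed gene, had 26.8, 22.1 and 30.2 CPM (the count divided by the TMM-scaled library size, set to a fixed total) in Cre+ replicates 1, 2 and 3, against 51.9, 44.3 and 48.0 CPM in Cre- replicates 1, 2 and 3, with no overlap. The 12 erythroid progenitor markers summed to 2134, 2188 and 1750 CPM in Cre+ and 1790, 1789 and 1575 CPM in Cre- libraries, and none of the 12 was at 0. The sums differed mostly through Car2, a carbonic anhydrase, with 538, 502 and 408 CPM in Cre+ and 239, 236 and 205 CPM in Cre- libraries (log2 fold change 1.09, adjusted p = 0.00787, edgeR, and up to 0.0850 over the alternatives). Of the other markers Kit, Gata2, Tal1 and Gfi1b had negative log2 fold changes. Cd24a was higher in Cre+ without overlap, at 187, 150 and 142 CPM against 134, 124 and 72.7 CPM in Cre- libraries. Its log2 fold change was 0.53 (adjusted p = 0.558, edgeR). Sox6, at most 9.60 CPM in any library, also lay higher without overlap. In TPM the erythroid sums lay apart, at 1411, 1283 and 1087 TPM in Cre+ and 1037, 974 and 920 TPM in Cre- libraries. The 7 neutrophil and monocyte markers summed to 239, 218 and 487 CPM in Cre+ libraries, all below the 907, 545 and 1424 CPM of Cre- libraries. Most of that sum was Mpo, with 226, 209 and 481 CPM in Cre+ and 859, 512 and 1365 CPM in Cre- libraries. Prtn3 and Csf1r were also lower in Cre+ without overlap, and Ctsg overlapped. Elane and Ms4a3, at most 3.23 CPM in any library, averaged higher in Cre+ libraries. The 5 lymphoid markers also lay apart, at 1.59 to 7.66 CPM in Cre+ and 34.2 to 110 CPM in Cre- libraries, while the 4 hepatocyte markers summed to at most 1.08 CPM in any library. Ly6c2, Cd3e, Afp and Ttr on these lists, and the basophil and mast cell genes Mcpt8 and Prss34, were at 0 in every library. Sums of 4 megakaryocyte, 4 mast cell and basophil, and 4 endothelial markers overlapped between the genotypes, with no library above 46.4 CPM for any of these lists. The part of this difference in other cells' markers in the histone values was not tested.

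Histone mRNA was abundant, at 68065 ± 9874 TPM (a level per length, scaled to a fixed total) over all 6 libraries (SD, n = 6). By type, H2A genes summed to 36782 ± 5454 TPM, H2B to 15215 ± 1832 TPM, H3 to 8334 ± 1258 TPM, H4 to 4549 ± 1174 TPM and H1 to 3186 ± 298 TPM. This order held in every library except Cre+ replicate 3, where H4 at 2700 TPM lay below H1 at 2840 TPM. H2A made up 54.3% ± 0.597 of the histone TPM in Cre+ and 53.8% ± 0.802 in Cre- libraries (SD, n = 3 each), which overlapped. H4 varied most, with 7.60%, 6.24% and 4.82% in Cre+ replicates 1, 2 and 3, against 6.94%, 6.95% and 7.01% in the Cre- replicates. A TPM depends on the length of the gene model, and this order by TPM does with it. In CPM, H1 lay above H2B, H3 and H4. Means over all 6 libraries were 5792 CPM for H2A, 3041 for H1, 2400 for H2B, 2165 for H3 and 846 for H4. Genes with models running more than 100 bases past the stem-loop, Hist1h1c, Hist1h1d and Hist1h1e among them, summed to 4671 CPM and 5299 TPM. Genes with models ending within 100 bases past it summed to 5772 CPM and 30823 TPM.

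Within each type a few genes carried most of the level. The 3 most abundant genes held 78.4% of H1, 52.8% of H2A, 59.0% of H2B, 58.7% of H3 and 69.1% of H4 TPM on average. The highest level of any member was that of Hist2h2aa1, at 9326 ± 2418 TPM, and its near-identical neighbour Hist2h2aa2 was given 8.01 TPM. Next among H2A came Hist1h2af (5121 ± 729 TPM) and Hist1h2ap (5024 ± 585 TPM), which do not differ beyond their spread. Hist2h2bb led H2B with 5089 ± 1081 TPM, followed by Hist1h2bk with 2275 ± 274 TPM and Hist1h2bn with 1614 ± 181 TPM. Hist2h3b led H3 with 2757 ± 532 TPM, before Hist1h3b with 1225 ± 252 TPM. For H4, Hist1h4h at 1379 ± 407 TPM and Hist1h4k at 1264 ± 503 TPM overlapped, and the next was Hist1h4b at 526 ± 103 TPM. These ranks by TPM depend on model length. Hist1h4d, on a model of 1138 bases, had 267 TPM but averaged 157 CPM in Cre+ and 226 CPM in Cre- libraries. Hist1h4k, on a model of 312 bases, averaged 51.4 CPM in Cre+ and 64.2 CPM in Cre- libraries. The linker histones Hist1h1c (943 ± 57.4 TPM), Hist1h1b (806 ± 90.2 TPM) and Hist1h1a (747 ± 120 TPM) stood close together.

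The testis-type genes were at or near 0. Hist1h2aa was 0 in every library, and Hist1h2ba had 1 read in Cre+ replicate 3 and none elsewhere. Hist1h1t, the linker histone of male germ cells, had 174, 200 and 1028 counts in Cre+ and 304, 0 and 0 counts in Cre- libraries. The filter on low counts removed 4 of the 70 genes, Hist1h2aa, Hist1h2aj, Hist1h2ba and Hist2h3c1, and left 66 for testing.

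**Figure D1:**
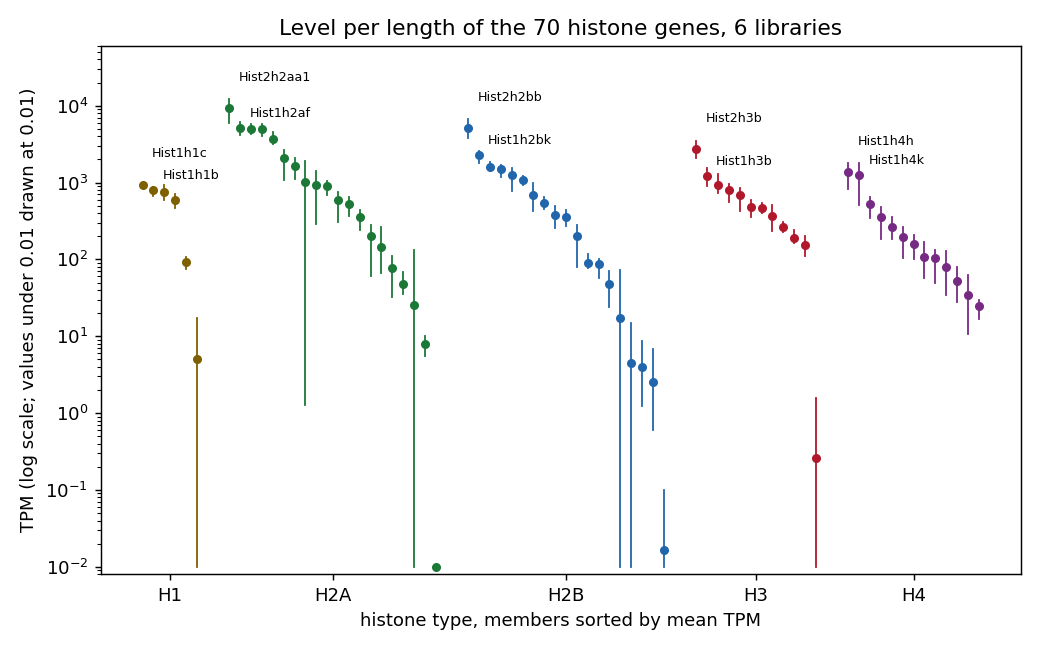
Level of each of the 70 histone genes in TPM on a log axis, by histone type and sorted within a type; points are means over 6 libraries and lines run from the lowest to the highest library. Hist2h2aa1 stands highest at 9326 TPM, and lines that reach the foot of the plot are genes at or near 0 in at least 1 library.

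The comparison of Cre+ with Cre- cells asks how histone mRNA differed when the exosome subunit was targeted. All histone genes together summed to 15622, 11840 and 11908 CPM in Cre+ replicates 1, 2 and 3, against 16778, 15015 and 14302 CPM in Cre- replicates 1, 2 and 3. Cre+ libraries thus held 85.4% ± 14.1 of the Cre- mean (SD, n = 3), a log2 ratio of -0.23, and the groups overlapped. The lower values were those of Cre+ replicates 2 and 3, whereas replicate 1 lay within the Cre- range. In bulk samples, fewer cells in S phase and less histone mRNA per cell cannot be told apart.

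All 5 types had a Cre+ mean below the Cre- mean, and for all 5 the groups overlapped in CPM. H4 summed to 967, 656 and 581 CPM in Cre+ and 1053, 921 and 901 CPM in Cre- libraries, a log2 ratio of -0.38. H3 summed to 2313, 1697 and 1838 CPM in Cre+ and 2543, 2365 and 2234 CPM in Cre- libraries, a log2 ratio of -0.29. The core histones H3 and H4 form the central tetramer of the nucleosome. In each of the 5 types the overlap came from Cre+ replicate 1. H2A summed to 6584, 4607 and 4776 CPM in Cre+ and 7091, 5962 and 5731 CPM in Cre- libraries, a log2 ratio of -0.23. H2B, its partner in the nucleosome, summed to 2535, 2164 and 2013 CPM in Cre+ and 2653, 2591 and 2443 CPM in Cre- libraries, a log2 ratio of -0.20. H1, the linker histones between nucleosomes, had 3223, 2716 and 2699 CPM in Cre+ and 3438, 3177 and 2993 CPM in Cre- libraries and a log2 ratio of -0.15. In TPM the groups did not overlap for H2B (15575, 13205 and 12851 TPM in Cre+ against 17544, 15751 and 16361 TPM in Cre-) and H3. Single libraries moved these CPM ratios. Without Cre+ replicate 1 the log2 ratio was -0.63 for H4, -0.42 for H2A, -0.30 for H2B and -0.24 for H1. Without Cre- replicate 1 it was -0.14 for H2A and -0.10 for H1, without Cre+ replicate 2 it was -0.14 for H2A, and without Cre+ replicate 3 it was -0.24 for H4 and -0.13 for H2B. Without the most abundant gene of each type it was -0.23 for H1 and -0.17 for H2B.

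**Figure D2:**
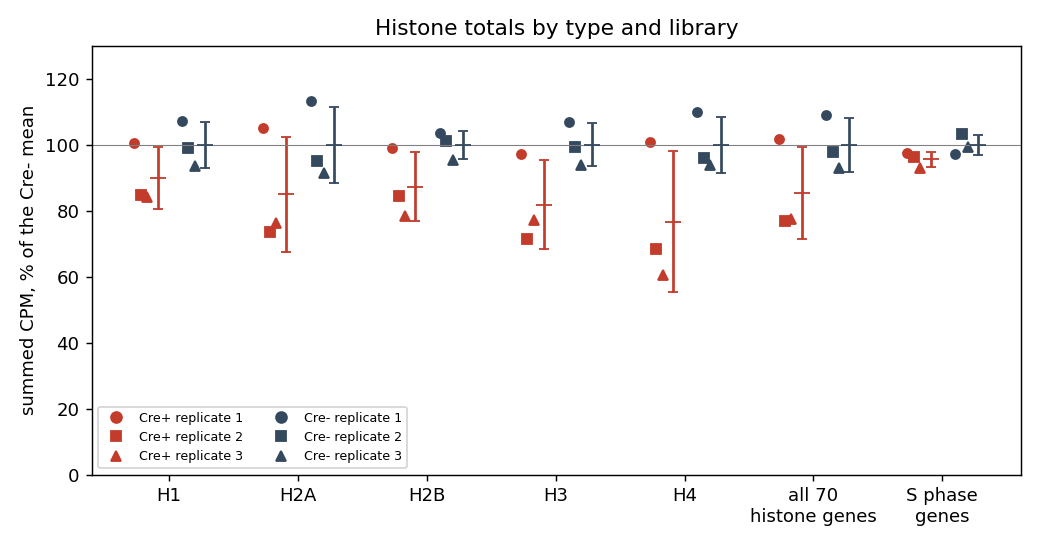
Summed CPM of each histone type, of all 70 histone genes and of 28 S phase genes in each library, as a percentage of the Cre- mean; symbols are replicates and bars are mean and SD (n = 3). For each histone type Cre+ replicate 1 lies near 100% and Cre+ replicates 2 and 3 lie below every Cre- library, while S phase genes average 95.7% in Cre+ libraries.

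Gene by gene, no histone gene passed edgeR's quasi-likelihood test after adjustment over 13117 genes, where 0.122% of all genes were called higher and 0% lower. By unadjusted p under 0.05, 13 of the 66 tested histone genes (19.7%) had lower and 1 (1.52%) had higher values in Cre+ cells, against 4.19% and 4.05% of all genes. DESeq2 called 5 histone genes lower and 0 higher, where it called 1.66% of all genes lower and 1.79% higher. The log2 fold change was negative for 51 of 66 (77.3%), against 50.8% of all genes, and its median was -0.22, against -0.01 over all genes. Groups did not overlap in 10 genes with lower Cre+ values (15.2%) and in 1 with higher values (1.52%), against 7.66% and 7.53% of all genes. The 1 higher gene was Hist2h2aa2, at 1.86 CPM in Cre+ and 1.21 CPM in Cre- cells, a copy of Hist2h2aa1 with 0% of its windows found in no other gene. Histone genes were mostly well counted, and among the 60 that averaged 1000 counts or more 50 were negative (83.3%), against 50.2% of all genes counted as deeply.

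The libraries of 1 genotype did not share this difference equally. In Cre+ replicate 1, 35 of 66 histone genes (53.0%) lay below their Cre- mean, against 52.3% of all tested genes. In Cre+ replicate 2 it was 52 of 66 (78.8%, against 53.6% of all genes), and in Cre+ replicate 3 it was 53 of 66 (80.3%, against 53.3%). The median log2 ratio to the Cre- mean was -0.03, -0.37 and -0.36 in Cre+ replicates 1, 2 and 3. Without Cre+ replicate 1 the total's log2 ratio was -0.37, without Cre+ replicate 2 or 3 it was -0.16, and without Cre- replicate 1 also -0.16.

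Among H1 genes, 1 of 6 (16.7%) had an unadjusted edgeR p under 0.05 with lower Cre+ values, against 4.19% of all genes. Of the 6, 4 were negative and the median log2 fold change was -0.20. Hist1h1d (H1.3) had 628, 479 and 485 CPM in Cre+ and 689, 637 and 593 CPM in Cre- libraries, a log2 fold change of -0.27 (standard error 0.12, adjusted p = 0.582, edgeR). Hist1h1c (H1.2), the most abundant H1 gene, averaged 1036 ± 85.2 CPM in Cre+ and 1033 ± 73.3 CPM in Cre- libraries. Its share of H1 TPM was 31.4% ± 1.42 in Cre+ and 28.1% ± 1.40 in Cre- libraries, with no overlap between the groups. Hist1h1e (H1.4), Hist1h1b (H1.5) and Hist1h1a (H1.1) had log2 fold changes of -0.22, -0.19 and -0.27. The groups overlapped for all 3.

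Among 18 tested H2A genes, 5 (27.8%) had an unadjusted edgeR p under 0.05, all lower, against 4.19% of all genes. Of the 18, 14 were negative and the median was -0.28. Hist1h2ap had 741, 674 and 730 CPM in Cre+ libraries, all below the 905, 876 and 778 CPM of Cre- libraries. Its log2 fold change was -0.25 (standard error 0.08, adjusted p = 0.389, edgeR), and it passed DESeq2 (adjusted p = 0.0258, the alternatives spanning 0.0258 to 0.694). Hist1h2af had 508, 424 and 411 CPM in Cre+ and 541, 598 and 510 CPM in Cre- libraries, again without overlap. Its log2 fold change was -0.30 (standard error 0.10, adjusted p = 0.451, edgeR), and it passed DESeq2 as well (adjusted p = 0.0430, the alternatives spanning 0.0430 to 0.694). Only 6.93% of the windows of Hist1h2ap and 20.3% of those of Hist1h2af occur in no other gene.

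Hist2h2aa1, the most abundant histone mRNA, differed by less than its spread. Summed with its copy Hist2h2aa2 it had 2905, 1396 and 1933 CPM in Cre+ and 2923, 2072 and 2090 CPM in Cre- libraries. The log2 fold change of Hist2h2aa1 was -0.19 (standard error 0.23, adjusted p = 0.966, edgeR). Larger differences, singled out after their values were seen, were in scarcer genes. Hist2h2ab had 25.6, 17.0 and 7.82 CPM in Cre+ and 36.5, 32.0 and 35.0 CPM in Cre- libraries, a log2 fold change of -1.04 (standard error 0.40, adjusted p = 0.520, edgeR). Hist1h2ah had 100.2, 60.8 and 29.3 CPM in Cre+ and 112, 120 and 140 CPM in Cre- libraries, a log2 fold change of -0.97 (standard error 0.35, adjusted p = 0.475, edgeR). Hist1h2ad averaged 22.9 ± 9.10 CPM in Cre+ and 42.4 ± 15.8 CPM in Cre- libraries (SD, n = 3 each), which overlapped (log2 fold change -0.89, standard error 0.37). In Hist2h2ab and Hist1h2ah the lowest library was Cre+ replicate 3 and the groups lay apart.

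Among 18 tested H2B genes, 13 were negative and the median was -0.12. At an unadjusted edgeR p under 0.05, 1 (5.56%) was lower, near the 4.19% of all genes. That gene was Hist1h2bm, which had the smallest p of all histone genes. It had 219, 203 and 148 CPM in Cre+ libraries, all below the 288, 280 and 273 CPM of Cre- libraries. Cre+ libraries held 67.8% ± 13.3 of its Cre- mean (SD, n = 3). The log2 fold change was -0.56 (standard error 0.14, adjusted p = 0.260, edgeR). It passed DESeq2 (adjusted p = 0.000654, the alternatives spanning 0.000654 to 0.571). Of its windows 56.2% occur in no other gene, and its model ends 46 bases past the stem-loop. Hist2h2bb, the most abundant H2B gene, had 457, 324 and 377 CPM in Cre+ and 582, 392 and 484 CPM in Cre- libraries, which overlapped (log2 fold change -0.33, standard error 0.16). Hist1h2bk and Hist1h2bn had log2 fold changes of -0.11 and -0.08, each below its standard error of 0.13.

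Among 11 tested H3 genes, 4 (36.4%) had an unadjusted edgeR p under 0.05, all lower, against 4.19% of all genes. Of the 11, 10 were negative and the median was -0.25. Hist1h3b had 314, 236 and 270 CPM in Cre+ libraries, all below the 414, 356 and 359 CPM of Cre- libraries. Its log2 fold change was -0.46 (standard error 0.12, adjusted p = 0.278, edgeR), and it passed DESeq2 (adjusted p = 0.00151, the alternatives spanning 0.00151 to 0.592). Hist1h3i had 88.1, 82.9 and 78.0 CPM in Cre+ and 137, 109 and 96.4 CPM in Cre- libraries, also without overlap, at a log2 fold change of -0.46 (standard error 0.16, adjusted p = 0.430, edgeR). Picked with its values known, Hist1h3f had 124, 92.7 and 102 CPM in Cre+ and 121, 168 and 149 CPM in Cre- libraries. Hist2h3c2, picked in the same way, had 515, 349 and 436 CPM in Cre+ and 595, 576 and 484 CPM in Cre- libraries. Their log2 fold changes were -0.46 (standard error 0.16) and -0.35 (standard error 0.14), and 1 Cre+ library in each lay within the Cre- values. The H3 gene with the highest TPM, Hist2h3b, overlapped between the groups at a log2 fold change of -0.27 (standard error 0.17). The size for H3 depended on the genes counted: over those with at least 50% of windows found in no other gene, the median was -0.11 and the log2 ratio of the sums -0.17.

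The H3 genes encode H3.1 or H3.2, which are laid down as DNA is copied, whereas H3.3, from H3f3a and H3f3b, is used throughout the cell cycle. The 4 H3.1 genes had 352, 296 and 275 CPM in Cre+ and 407, 319 and 369 CPM in Cre- libraries, a log2 ratio of -0.25. The 8 H3.2 genes had 1961, 1401 and 1563 CPM in Cre+ and 2135, 2046 and 1865 CPM in Cre- libraries, a log2 ratio of -0.30. The H3.3 genes had 713, 724 and 654 CPM in Cre+ and 713, 795 and 705 CPM in Cre- libraries, a log2 ratio of -0.08. Per length, H3.2 made up 63.1% ± 3.75 of H3 TPM in Cre+ and 64.8% ± 2.15 in Cre- libraries, with 27.3% ± 2.57 in Cre+ and 26.9% ± 2.28 in Cre- libraries for H3.1 (SD, n = 3 each). H3.3 made up 9.61% ± 1.29 in Cre+ and 8.24% ± 0.892 in Cre- libraries. All 3 shares overlapped between the genotypes.

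Among 13 tested H4 genes, 10 were negative and the median was -0.42. An unadjusted edgeR p under 0.05 was met by 2 (15.4%) with lower and 1 (7.69%) with higher Cre+ values. Over all genes these shares were 4.19% and 4.05%. Hist1h4d had 189, 132 and 150 CPM in Cre+ libraries, all below the 210, 222 and 247 CPM of Cre- libraries. Its log2 fold change was -0.53 (standard error 0.14, adjusted p = 0.278, edgeR), and it passed DESeq2 (adjusted p = 0.00323, the alternatives spanning 0.00323 to 0.603). Hist1h4h, the most abundant H4 gene, had 244, 147 and 123 CPM in Cre+ and 256, 267 and 182 CPM in Cre- libraries, at a log2 fold change of -0.46 (standard error 0.24). Hist1h4k and Hist1h4b had log2 fold changes of -0.32 (standard error 0.40) and -0.30 (standard error 0.23), with overlap. Hist1h4j, picked with its values known, was scarce, with 12.3, 4.28 and 7.94 CPM in Cre+ and 24.7, 9.66 and 23.1 CPM in Cre- libraries (log2 fold change -1.23, standard error 0.53). The H4 gene with higher Cre+ values at that threshold was Hist1h4i, with 28.2, 36.8 and 46.2 CPM in Cre+ and 28.3, 12.3 and 18.4 CPM in Cre- libraries. Its log2 fold change was 0.91 (standard error 0.35, adjusted p = 0.513, edgeR), and Cre+ replicate 1 lay within the Cre- values. Its stem-loop, shown above, has the same GGCCC arm as those of Hist1h4d and Hist1h4h.

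**Figure D3:**
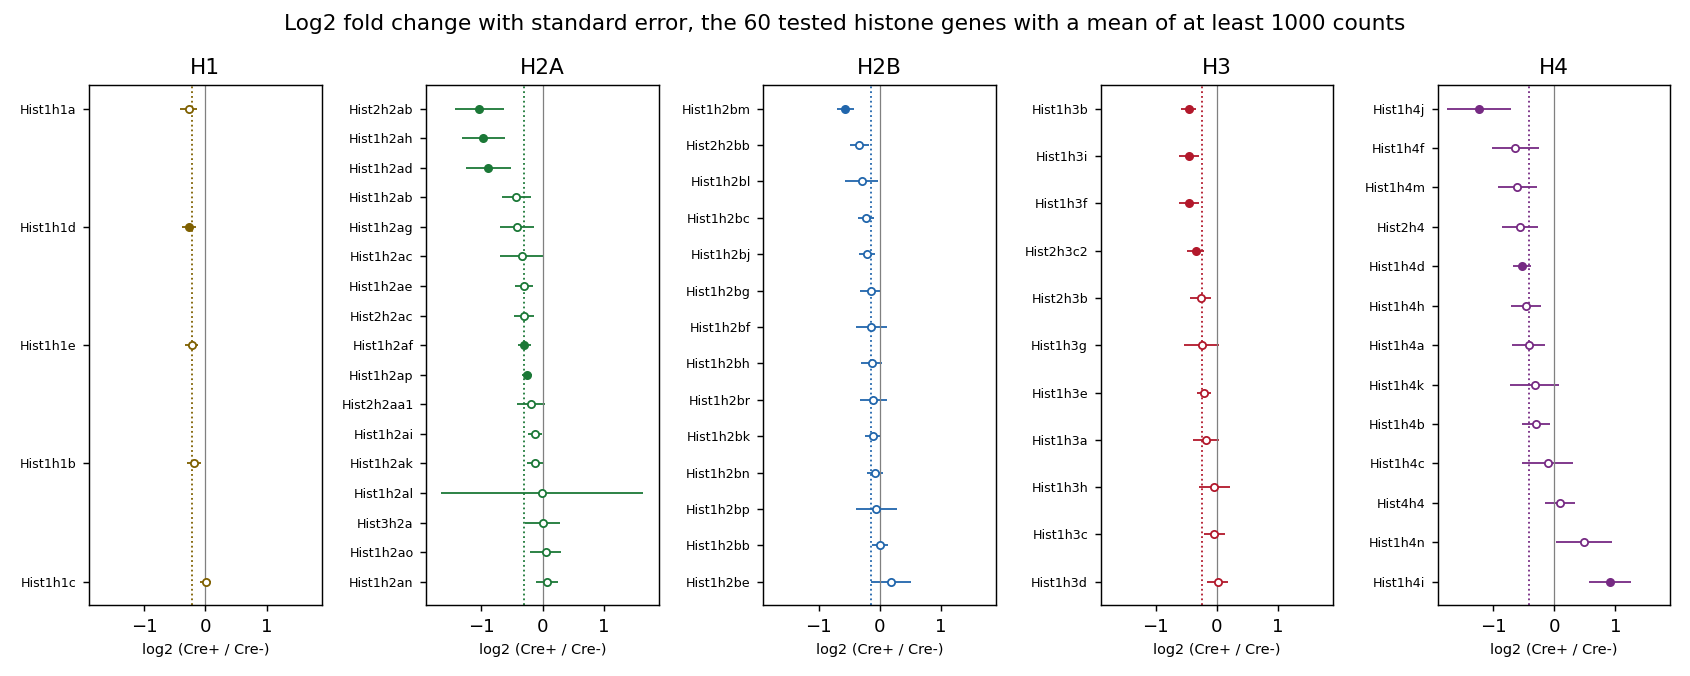
Log2 fold change of Cre+ over Cre- with its standard error for the 60 tested histone genes that averaged 1000 counts or more, by type; filled points have an unadjusted p under 0.05 and dotted lines mark the median of the genes shown in each type. Of the 60 genes, 50 lie left of 0, and Hist1h4i is the only filled point to the right.

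The fold changes were also grouped by gene model and by place in the genome, and the median was negative in each class but the small Hist3 and Hist4 clusters. Genes whose model ended within 100 bases past the stem-loop had a median of -0.25 (19 of 23 negative), those whose model went further -0.22 (15 of 22 tested) and those with no stem-loop in the model -0.19 (17 of 21 tested). Genes with at least 50% of windows found in no other gene had a median of -0.20 (24 of 34 tested negative), and those under 50% had -0.23 (27 of 32). In the Hist1 cluster 43 of 53 tested genes were negative with a median of -0.21, and in the Hist2 cluster 7 of 9 with a median of -0.30. Within the Hist1 cluster, the stretch of 29 genes from Hist1h4h to Hist1h1a had 24 negative and a median of -0.25, and the stretch of 18 tested genes between Hist1h2bl and Hist1h2br had 14 negative and a median of -0.12. The 3 Hist3 genes had a median of 0.00, and Hist4h4 had 0.09. These differences between classes were not tested. Neighbouring H2A and H2B genes can share a stretch of DNA between their starts. Of 12 pairs within 1000 bases with both genes tested, 8 had both negative, 2 both positive and 2 opposite signs. Most tested genes of both types were negative in any case, 14 of 18 for H2A and 13 of 18 for H2B. A link between neighbours was not tested.

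The histones made outside S phase gave a mixed picture. None of 11 tested replication-independent histone genes passed edgeR's adjusted test, while DESeq2 called 1 higher and 1 lower, H2afj and H2afz. At an unadjusted edgeR p under 0.05 the counts were 1 higher and 2 lower, where 4.05% and 4.19% of all genes were. Of the 11, 9 were negative with a median of -0.11, against 50.8% negative over all genes. They summed to 1870, 1822 and 2009 CPM in Cre+ libraries, all below the 2141, 2186 and 2327 CPM of Cre- libraries, though in TPM the groups overlapped. H2afz, which encodes the H2A.Z variant found at promoters and was picked with its values known, had 359, 330 and 363 CPM in Cre+ and 460, 491 and 402 CPM in Cre- libraries (log2 fold change -0.36, standard error 0.10, adjusted p = 0.278, edgeR). H2afy (macroH2A1), a variant with a large extra domain, had 210, 225 and 342 CPM in Cre+ and 432, 366 and 649 CPM in Cre- libraries (log2 fold change -0.90, standard error 0.23, adjusted p = 0.274, edgeR). As with the neutrophil and monocyte sum, mostly Mpo, Cre- replicate 3 was the highest library for H2afy. The part of those cells in the H2afy difference was not tested. H2afj (H2A.J) was the gene on the higher side, with 208, 186 and 220 CPM in Cre+ and 137, 148 and 143 CPM in Cre- libraries. Its log2 fold change was 0.52 (standard error 0.11, adjusted p = 0.179, edgeR, and 8.18e-05 to 0.526 over the alternatives). H2afx, whose transcript also carries the stem-loop, had 220, 179 and 217 CPM in Cre+ and 234, 214 and 218 CPM in Cre- libraries. For each of these except H2afx the groups did not overlap, Cre+ replicate 1 included. Over the list this held for 2 genes with lower and 1 with higher Cre+ values, where 7.66% and 7.53% of all genes did so.

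**Figure D4:**
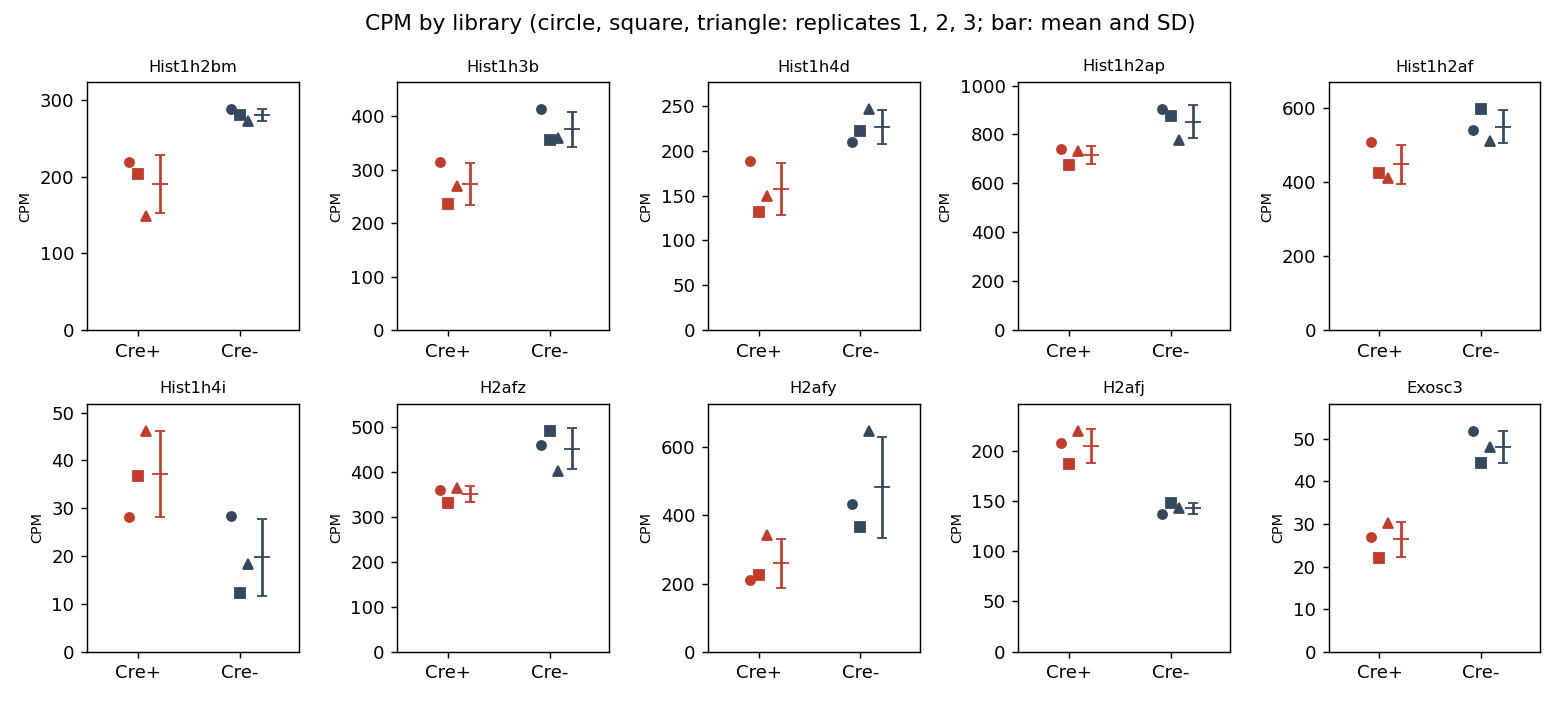
CPM of 6 replication-dependent histone genes, 3 replication-independent ones and Exosc3 in each library; symbols are replicates, bars are mean and SD (n = 3), and axes start at 0. Cre+ libraries lie apart from Cre- libraries for each gene shown except Hist1h4i. The 5 replication-dependent genes with lower Cre+ values are those that DESeq2 called. Of the 66 tested histone genes, 10 lay apart with lower Cre+ values.

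The factors that process and degrade histone mRNA had fold changes centred near 0. Of 34 tested genes on that list none passed edgeR's adjusted test, 18 were negative and the median was -0.02. Exosc3 itself was the 1 gene that DESeq2 called, and the 1 gene with an unadjusted edgeR p under 0.05. Lower Cre+ values at that p were found for 4.19% of all genes. Slbp had 236, 188 and 201 CPM in Cre+ and 238, 252 and 221 CPM in Cre- libraries (log2 fold change -0.18, standard error 0.11, adjusted p = 0.823, edgeR). Cre+ replicates 2 and 3 were the lowest for Slbp, as for the histone totals, and Cre+ replicate 1 lay within the Cre- values. The sum of the S phase genes below, a list that also holds Slbp, had the same libraries lowest. A link of Slbp to the histone totals was not tested. Eri1 had 79.3, 81.2 and 65.7 CPM in Cre+ libraries, all below the 87.5, 87.1 and 84.5 CPM of Cre- libraries (log2 fold change -0.20, standard error 0.15). Srrt (ARS2), a cap-binding cofactor, had 546, 630 and 579 CPM in Cre+ and 543, 482 and 514 CPM in Cre- libraries (log2 fold change 0.19, standard error 0.09). The exosome's nucleases Dis3 and Exosc10 had log2 fold changes of 0.04 and -0.03, and the helicase Upf1, which joins SLBP in decay, had -0.04.

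On the list of 14 histone gene transcription factors and cell cycle regulators, none passed edgeR's adjusted test, 8 were negative and the median was -0.07. DESeq2 called 1 higher and 1 lower, as did an unadjusted edgeR p under 0.05, which 4.05% and 4.19% of all genes met. Both genes from this list were subunits of the CCAAT-binding factor NF-Y. Nfya had 97.5, 78.7 and 103 CPM in Cre+ and 114, 158 and 153 CPM in Cre- libraries (log2 fold change -0.61, adjusted p = 0.278, edgeR). Nfyb had 144, 158 and 137 CPM in Cre+ and 103, 128 and 89.9 CPM in Cre- libraries (log2 fold change 0.45, adjusted p = 0.393, edgeR). Npat, the coactivator of replication-dependent histone genes, overlapped between the groups at -0.11 (standard error 0.18).

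The 28 S phase genes, which serve DNA copying, summed to 5722, 5664 and 5468 CPM in Cre+ and 5714, 6061 and 5843 CPM in Cre- libraries. That was 95.7% ± 2.27 of the Cre- mean in Cre+ libraries, beside 85.4% ± 14.1 for replication-dependent histone genes (SD, n = 3 each). The 11 replication-independent histone genes above were at 85.7% ± 4.37, without overlap between the groups in CPM. Much of that difference lay in H2afy, with means of 259 CPM in Cre+ and 482 CPM in Cre- libraries. The sums of the 11 averaged 1900 CPM in Cre+ and 2218 CPM in Cre- libraries. Their median log2 fold change was -0.11, with 9 of the 11 negative. None of the 28 passed edgeR or DESeq2 after adjustment, 0 had an unadjusted edgeR p under 0.05, 18 were negative and the median was -0.04. Pcna, the sliding clamp of DNA polymerase, had 155, 189 and 225 CPM in Cre+ and 204, 191 and 176 CPM in Cre- libraries. Groups did not overlap in 3 of the 28 with lower and 1 with higher Cre+ values, where 7.66% and 7.53% of all genes did so. Mcm6, a helicase subunit, and Gins1 were among the lower ones, at log2 fold changes of -0.15 (standard error 0.08) and -0.60 (standard error 0.30). The 16 histone chaperones, which carry histones to DNA, summed to 99.95% ± 0.907 of the Cre- mean in Cre+ libraries, with 6 of 16 negative and a median of 0.02. None passed edgeR or DESeq2 after adjustment, and 0 had an unadjusted edgeR p under 0.05. Groups did not overlap in 2 of the 16 chaperone genes with higher and 2 with lower Cre+ values, against 7.53% and 7.66% of all genes. The higher ones were Ipo4 and Asf1a, which handle new H3 and H4, at log2 fold changes of 0.30 (standard error 0.14) and 0.35 (standard error 0.21). The lower ones, picked with their values known, were Chaf1a, a subunit of the chromatin assembly factor CAF-1, and Nap1l1, at log2 fold changes of -0.11 (standard error 0.08) and -0.11 (standard error 0.07).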

How the data were processed

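Expected counts, TPM and FPKM per gene were deposited for 6 libraries, per the file headers, beside transcript lengths. The authors used STAR 2.5.3a, RSEM 1.3.0 and GRCm39 (mm39) according to the submitters' processing notes. Which annotation release and strand setting they chose is not given in the sources used here. FPKM values, deposited beside TPM, entered no result. Of 55359 entries, 52081 matched a symbol by gene identifier. Expected counts were rounded to whole numbers, and filterByExpr kept 13117 genes. Cre+ was tested against Cre- with edgeR 4.0.16 (TMM, glmQLFit, glmQLFTest, R 4.3.3), and p-values over all of these genes were adjusted by Benjamini and Hochberg's method at 0.05. CPM used TMM-scaled library sizes. TPM served for levels between genes, and sums over genes have no p. On counts simulated for this comparison (12537 genes), edgeR recovered 26.1% of 88 genes changed by 1 and 55.1% of 107 changed by 2 on the log2 scale. Smaller changes, such as the histone median of -0.22, were not simulated, so their recovery is not known. Stem-loops, coding bases and window uniqueness came from GENCODE M21 transcripts, matched by transcript identifier for all 70 histone genes (64 of equal length). M21 is on GRCm38, so no coordinates are given. RefSeq gave chromosomes, gene types and neighbours only. Protein and promoter sequences were not analysed here.

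The histone genes and all lists were chosen with earlier results of these data known. Genes named were, per type, the 3 with the highest mean TPM and the 2 with the smallest p, the testis-type genes, the 2 of each context list with the smallest p, and Slbp, Npat, Eri1, Exosc3, Exosc10, Dis3, Upf1 and Pcna. Other genes were chosen after their values were seen. Of the 13 replication-independent histones listed, 11 were matched. The design text gives 2 samples from each of 3 litters and not how many embryos made a sample, and p-values measure the spread between these samples. Reads were not counted by molecule. Alternatives covered DESeq2 1.42.0, other scalings and filters, effective lengths, TPM sums, subsets of the histone genes, a replicate block and leaving out each library.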

Additional observations from a re-analysis of the deposited data

How the results depend on the processing

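The summed log2 ratios and the medians, all negative, stayed negative in 78 of 78 and 96 of 96 alternatives. The log2 fold changes of the named histone genes, of either sign, kept their sign in 286 of 294. Over all genes, 16 were called higher and 0 lower. DESeq2 called 235 and 218, the fit with no filter 33 and 6, effective length offsets 6 higher, a minimum mean of 100 counts 3 lower, and leaving out each library 7 to 15 and 0 to 3. DESeq2 called 5 histone genes lower; the causes were not tested. The log2 fold change of Hist1h1c, 0.00, became -0.0029 with upper-quartile factors and -0.017 with library totals. Leaving out each library moved Hist1h1c between -0.058 and 0.064, Hist1h2bk between -0.23 and 0.016, Hist1h4k between -0.88 and 0.025 and Hist2h2aa1 between -0.51 and 0.034. The medians ran from -0.31 to -0.12 for H1, -0.39 to -0.14 for H2A, -0.26 to -0.06 for H2B, -0.47 to -0.16 for H3 and -0.68 to -0.25 for H4, and the summed log2 ratios from -0.24 to -0.10 for H1, -0.42 to -0.14 for H2A, -0.30 to -0.13 for H2B, -0.43 to -0.20 for H3 and -0.63 to -0.24 for H4. The medians over genes with at least 50% unshared windows or 1000 counts, and the sums over such genes, were added after seeing the data.

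A replicate block in edgeR's fit gave 38 genes higher, 18 lower and 0 histone genes. Same-numbered libraries correlated at 0.026, 0.053 and 0.073 in their deviations from the group means, and each library correlated best with its own number. These values are small and come from the data and not the design, so they cannot decide whether same-numbered libraries are pairs. By the labels, same-numbered libraries share only a number.

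Read depth was high for most histone genes, and single copies remain hard to separate where most windows are shared.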

Other observations

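Hist1h2al, a pseudogene of H2A by RefSeq, varied by replicate number and not by genotype. It had 14788, 36 and 7475 expected counts in Cre+ replicates 1, 2 and 3, and 11083, 8 and 8811 expected counts in Cre- replicates 1, 2 and 3. It was near 0 in replicate 2 of both genotypes, and of the 9 pairs of a Cre+ with a Cre- library only that pair and the pair of replicates 3 held a gene with such a pattern, 1 gene each.

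Histone mRNA per replication-independent histone mRNA, as a ratio of summed TPM, was 31.3, 25.0 and 19.0 in Cre+ replicates 1, 2 and 3, and 31.4, 27.2 and 24.2 in Cre- replicates 1, 2 and 3. H2A per H4, also in TPM, was 7.18, 8.58 and 11.3 in Cre+ libraries and 7.88, 7.69 and 7.60 in Cre- libraries. The Cre- libraries differed little from each other in that ratio and the Cre+ libraries spread to both sides of them.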
